A study of Mus musculus with 4 samples.

Results

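SHP (small heterodimer partner, gene Nr0b2) is an orphan nuclear receptor that has no DNA-binding domain and reaches chromatin through other transcription factors and corepressors. The data described are the wild-type SHP peaks that lay inside a protein-coding gene with the summit more than 1 kb and at most 5 kb from the nearest end of any protein-coding gene. The rule used positions alone, and 721 of 5775 wild-type peaks met it (12.5%, 95% exact interval 11.6 to 13.4). SHP was mapped by chromatin immunoprecipitation and sequencing in jejunum and ileum of C57BL/6 mice (wild type) and of SHP knockout mice of the same background, aged 8 to 12 weeks. All mice were fasted for 12 h and refed chow for 4 h, so both genotypes were in the fed state. Per the labels' protocols, 3 independent sets were analysed and each set pooled 3 mice, but 1 peak list stood for each genotype. The series has 4 samples, an immunoprecipitate and an input of each genotype, and the inputs were not used here. The labels name no sorted cell type, so the cells that carried a peak were not identified, and peaks do not measure expression of marker genes.

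The span of a gene in RefSeq runs over all of its transcripts, so an outermost end need not be the start that a tissue uses. Many mammalian genes have several promoters, and the first kilobases of a gene often hold its first intron and regulatory elements that work with the promoter. Promoters of broadly expressed genes commonly lie in CpG islands, stretches rich in G, C and the dinucleotide CG. The positions of members were therefore set against a RefSeq table of start sites (build GRCm38.p6, the coordinates of mm10), which lists 21238 starts for 17492 of 21887 protein-coding genes, each with strand and with the sequence from 250 bp before to 50 bp after it. Whether a summit lay in an exon, an intron or a UTR is not given in the annotation used.

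A large share of the peaks that the rule places inside genes sat near a listed start. Of the 703 members on chromosomes with listed starts, 304 (43.2%, 39.5 to 47.0) had the summit within 1 kb of one, 223 (31.7%) within 300 bp and 108 (15.4%) within 100 bp. The share within 1 kb was 79.1% for peaks within 1 kb of a gene end and 34.6% for peaks deeper than 5 kb inside genes. Such a start belongs to a gene that holds the summit, which the rule itself fixes. For 6 of the 15 members with the highest enrichment value (the authors' deposited signal per peak, of unstated scale), the summit fell inside the window that the table gives around a start. The 250 bases before those starts are printed because the summits lay in them or within 30 bp of them, and those of Aldoa and Dll1 are added because they hold the hexamer that nuclear receptors recognise. All are RefSeq sequence of GRCm38.p6, read 5′ to 3′ on the strand of the gene. Capitals mark AGGTCA or its reverse complement TGACCT, that hexamer, and no other motif searched occurs in them. They lie at chr9:54863505-54863754 (plus strand, Ireb2), chr13:63814990-63815239 (plus, Ercc6l2), chr2:118373420-118373669 (minus, Gpr176), chr4:124700449-124700698 (plus, Fhl3), chr11:119942842-119943091 (plus, Baiap2), chr10:30600701-30600950 (minus, Trmt11), chr7:126799179-126799428 (minus, Aldoa) and chr17:15375824-15376073 (minus, Dll1).
Ireb2: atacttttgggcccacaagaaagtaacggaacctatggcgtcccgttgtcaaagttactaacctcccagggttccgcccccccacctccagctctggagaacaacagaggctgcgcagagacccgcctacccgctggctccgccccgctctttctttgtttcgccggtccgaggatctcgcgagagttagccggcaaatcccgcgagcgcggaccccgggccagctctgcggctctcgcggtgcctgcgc
Ercc6l2: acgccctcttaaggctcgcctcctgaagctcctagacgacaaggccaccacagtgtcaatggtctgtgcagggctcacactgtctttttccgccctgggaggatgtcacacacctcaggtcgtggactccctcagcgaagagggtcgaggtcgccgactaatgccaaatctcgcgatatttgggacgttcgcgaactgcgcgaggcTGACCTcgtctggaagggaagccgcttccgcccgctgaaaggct
Gpr176: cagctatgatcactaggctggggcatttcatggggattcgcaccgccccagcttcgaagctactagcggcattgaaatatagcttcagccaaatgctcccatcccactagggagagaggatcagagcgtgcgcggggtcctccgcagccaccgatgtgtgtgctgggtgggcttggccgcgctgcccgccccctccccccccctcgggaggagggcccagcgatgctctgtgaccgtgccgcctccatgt
Fhl3: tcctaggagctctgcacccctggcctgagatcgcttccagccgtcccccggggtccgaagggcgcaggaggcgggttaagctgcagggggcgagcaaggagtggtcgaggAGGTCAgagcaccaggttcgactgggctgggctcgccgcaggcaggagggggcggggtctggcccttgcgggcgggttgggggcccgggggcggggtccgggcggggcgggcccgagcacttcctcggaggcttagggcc
Baiap2: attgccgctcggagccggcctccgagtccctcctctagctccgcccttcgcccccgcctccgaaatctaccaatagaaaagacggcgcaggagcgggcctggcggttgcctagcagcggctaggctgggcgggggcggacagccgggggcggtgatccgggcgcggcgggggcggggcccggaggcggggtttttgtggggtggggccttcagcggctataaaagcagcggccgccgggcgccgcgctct
Trmt11: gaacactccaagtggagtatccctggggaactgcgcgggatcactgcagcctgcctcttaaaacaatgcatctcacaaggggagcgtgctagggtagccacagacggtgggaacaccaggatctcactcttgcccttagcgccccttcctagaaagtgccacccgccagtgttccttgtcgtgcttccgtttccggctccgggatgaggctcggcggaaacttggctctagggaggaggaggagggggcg
Aldoa: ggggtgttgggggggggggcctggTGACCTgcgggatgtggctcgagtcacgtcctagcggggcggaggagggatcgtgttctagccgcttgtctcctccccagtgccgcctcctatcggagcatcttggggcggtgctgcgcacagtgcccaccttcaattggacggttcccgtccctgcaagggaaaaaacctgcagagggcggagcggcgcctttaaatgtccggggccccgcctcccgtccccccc
Dll1: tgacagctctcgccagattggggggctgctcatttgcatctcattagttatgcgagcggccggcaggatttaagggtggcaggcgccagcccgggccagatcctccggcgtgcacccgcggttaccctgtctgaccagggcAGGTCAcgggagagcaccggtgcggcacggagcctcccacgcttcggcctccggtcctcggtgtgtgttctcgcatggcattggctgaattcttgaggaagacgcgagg

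Each of these stretches is rich in G and C. Their GC content was 63.6% at Ireb2, 59.6% at Ercc6l2, 64.0% at Gpr176, 74.0% at Fhl3, 72.8% at Baiap2, 60.0% at Trmt11, 67.6% at Aldoa and 64.0% at Dll1. They held from 13 (Trmt11) to 31 (Baiap2) CG dinucleotides in 250 bases. Over the 108 listed windows of 300 bp with a member summit inside (windows of neighbouring starts overlap, so some summits lay in several), the median GC content was 69.7% (interquartile range 64.0 to 73.8), against 56.3% (48.3 to 64.7) over all 21238 windows of protein-coding genes. The ratio of observed to expected CG dinucleotides had medians of 0.862 and 0.567. Windows with a summit within 1 kb of a gene end (1421) had 67.7% GC and a ratio of 0.904, and those with a summit deep inside a gene (69) had 69.7% and 0.847. Starts under SHP peaks of all 3 classes thus had higher median GC content than the average listed start, a description with no test.

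Motifs known for factors through which SHP can act were counted in the same windows on both strands. AGGTCA occurred in 15 of 108 windows under members (13.9%, 7.99 to 21.9), against 14.7% of all windows and 9.43% of windows under peaks near gene ends. The longer TCAAGGTCA, the site of LRH-1 (Nr5a2), contains AGGTCA and occurred in 0 of 108, against 0.334% of all windows. TGACTCA, the AP-1 site, occurred in 0 of 108, against 4.66% of all windows and 2.32% near gene ends. TGACGTCA, the cAMP response element, occurred in 5 (4.63%, 1.52 to 10.5), against 2.24% of all windows and 4.57% near gene ends. CACGTG, the E-box that clock factors and TFEB can bind, occurred in 11 (10.2%, 5.20 to 17.5), against 7.84% of all windows and 11.8% near gene ends. CCGGAAGT, the site of ETS factors, occurred in 13 (12.0%, 6.57 to 19.7), against 5.15% of all windows and 8.52% near gene ends. With 0 of 108, a share of up to 2.78% is allowed for counting error (3 windows). GC content also differed between these sets of windows, and its part in the shares was not tested. A match describes letters in a window and shows no binding.

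The summits at listed starts lay mostly at or downstream of the start. Of the 304, 213 lay at or downstream and 91 upstream, with a median of 88 bp downstream (interquartile range from 42 bp upstream to 248 bp downstream). For 283 of them the nearest gene end was a start end. There the rule, which drops summits within 1 kb of an end, can remove positions upstream of a start more than positions downstream. How much of the split came from the rule was not tested. In 185 the gene had 1 listed start and in 119 it had several. The outermost end of the gene was itself within 100 bp of a listed start in 49 of 304, and in 255 it was not. By the rule, a listed start within 1 kb of a member's summit is never an outermost end. Among host genes in the start table, 173 of 559 (30.9%) had several listed starts, against 2761 (15.8%) of all genes in it. The rule can favour genes with several starts, because it keeps summits at inner starts and drops those at outermost ends. The second share also covers genes of any length, with or without a peak, so the shares are not like for like.

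**Figure D1:**
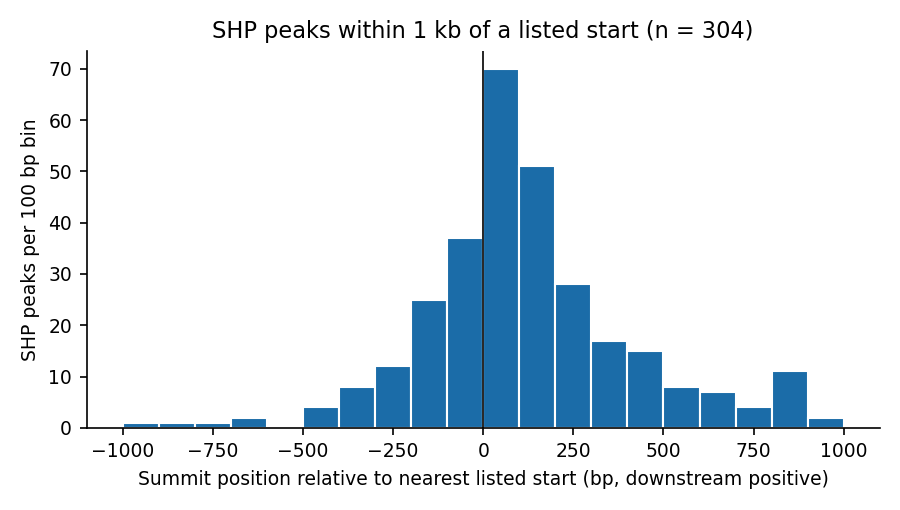
Position of the summit relative to the nearest listed start (bp, downstream positive) for the 304 peaks within 1 kb of one, in bins of 100 bp. The tallest bin lies directly downstream of the start, and the median is 88 bp downstream.

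The remaining members were less close to starts and were divided by which end of a protein-coding gene lay nearest. For 45 of all members that end belonged to a gene other than the host. The side of the nearest gene end was known for 580 members, and in 424 of these (73.1%, 69.3 to 76.7) it was the start end. That share was 96.8% of 3278 summits within 1 kb of an end, 56.9% of 492 summits deeper than 5 kb inside genes, and 49.7% of 290 summits outside. Away from listed starts, 141 members lay on the start side, 137 on the side of the other end and 139 beside a gene for which no start was listed. By distance there were 389 members from 1 to 2 kb, 166 from 2 to 3 kb, 96 from 3 to 4 kb and 70 from 4 to 5 kb, and the number at a listed start was 176, 54, 39 and 35. Where the side was known, the start end was nearest in 235, 85, 56 and 48 members of these bins and the other end in 63, 50, 27 and 16. Outside genes, the same distances from an end held 104 summits in place of 721 inside. No summit outside genes and over 1 kb from an end lay within 1 kb of a listed start. The class definition fixes this, because a gene end lies between such a summit and any start of that gene. It is therefore no contrast with the 304 of 721 members at a listed start. The sequence available at these distances was not measured, so the counts show no preference for the inside of genes.

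**Figure D2:**
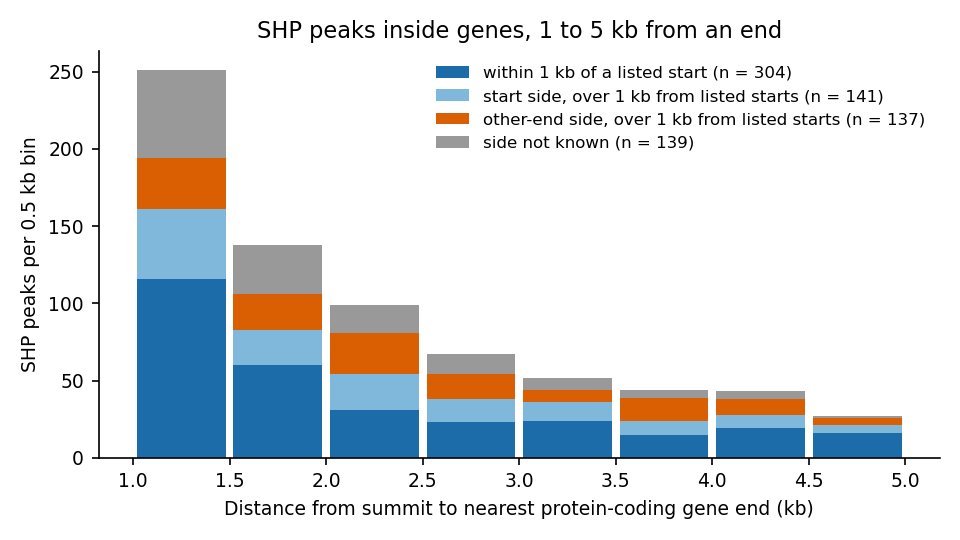
Number of SHP peaks per 0.5 kb bin of distance from the summit to the nearest protein-coding gene end (kb), stacked by position relative to listed starts. Most peaks lie from 1 to 2 kb (389 of 721), and peaks at a listed start (304) are present in every bin.

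Most members stood apart from the gene end as called intervals too. Their median width was 1100 bp (95% interval of the median 1046 to 1152 bp), against 997 bp within 1 kb of an end, 880 bp deep inside genes and 718 bp outside. The interval covered a gene end in 44 members (6.10%) and came within 1 kb of one in 257 (35.6%, 32.1 to 39.3). The other 464 lay wholly more than 1 kb from any end. From the summit the interval ran a median of 471 bp toward the nearest end and 510 bp away from it. The widest members were at Jade2 (4110 bp, chr11:51855078-51859187), Socs3, a feedback inhibitor of cytokine signalling (4071 bp), Csf2ra, a cytokine receptor (3996 bp), Tmem200b (3604 bp) and Nsd1, a histone methyltransferase (3603 bp), and each of these 5 intervals ran over a gene end.

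By signal the members were close to the rest of the list. Their median enrichment value was 5.76 (95% interval of the median 5.60 to 5.88, interquartile range 4.99 to 6.52), against 5.65 over all wild-type peaks, 5.64 within 1 kb of an end, 5.85 deep inside genes and 5.64 outside. The median −log10 p was 14.4, against 14.8 over all, 15.3, 13.9 and 14.2 in the same order. At or above the 75th percentile of the list (6.46) lay 198 members (27.5%, 24.2 to 30.9), against 25.1% of all peaks, and 193 of 628 deep peaks (30.7%). By −log10 p (17.5 or more) there were 149 (20.7%, 17.8 to 23.8), against 25.0% of all peaks. By the enrichment value, the intervals of the members' median and share include the values of the whole list. By −log10 p, the median (95% interval 14.1 to 14.6) and the share lay below those of the list. Each genotype had 1 list, so these differences have no replicate error and were not tested.

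**Figure D3:**
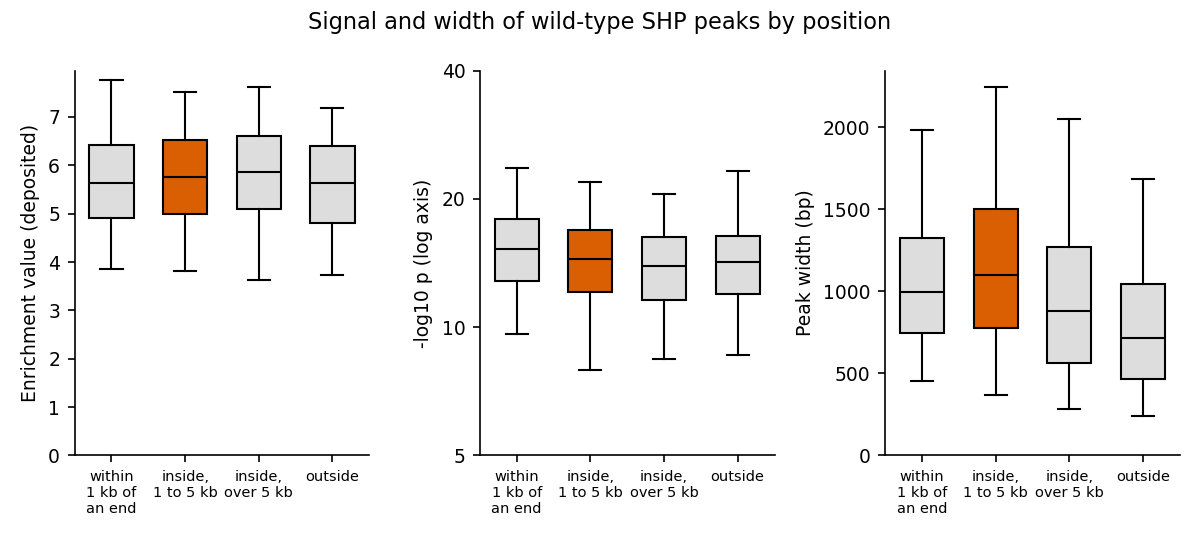
Deposited enrichment value, −log10 p (log axis) and width in bp of wild-type peaks in 4 position classes, with the members in orange. Boxes give the quartiles and the median, and whiskers the 5th and 95th percentiles; the median widths were 997, 1100, 880 and 718 bp from left to right.

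Within the members, position went with −log10 p and width more than with the enrichment value. Members at a listed start had a median −log10 p of 15.3 and a width of 1155 bp, and those away from listed starts on the side of the other end had 13.2 and 968 bp. Start-side members away from listed starts had 14.1 and 1040 bp. Median enrichment values in the same order were 5.64, 5.88 and 5.67. At or above the 75th percentile of −log10 p lay 87 of 304 members at a listed start (28.6%), 13 of 137 on the side of the other end (9.49%) and 21 of 141 elsewhere on the start side (14.9%).

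The strongest member lay at Ireb2, which encodes IRP2, an RNA-binding protein that controls iron uptake and storage. Its peak at chr9:54863486-54864315 had an enrichment value of 12.0 and a −log10 p of 51.0 and ranked 7 in the whole list. The summit was 1037 bp inside the gene and 60 bp upstream of the listed start printed above, so the peak counted as inside the gene through the longer span. Banp, which encodes a nuclear DNA-binding protein, had 11.6 (chr8:121949922-121951701, summit 2708 bp from an end). Puf60, a splicing factor, had 11 (chr15:76079904-76081234, 1592 bp from an end), and Actb, cytoplasmic beta-actin, had 9.48 (chr5:142905200-142907281, 1233 bp). Banp, Puf60 and Actb had no entry in the start table.

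Below these 4 the values lay closer together, and many were tied. Of the 721 members, 615 (85.3%) shared both enrichment value and −log10 p with another wild-type peak, against 89.9% of all wild-type peaks. Ercc6l2, a helicase-like protein of DNA repair, had 8.63 with the summit 30 bp downstream of its listed start and 4291 bp inside the gene. Clip2, a microtubule linker, had 8.37 (94 bp downstream of a listed start), Gpr176, an orphan receptor, 8.25 (60 bp upstream) and H3f3b, which encodes histone H3.3, 8.19 (58 bp downstream). Fhl3, a LIM-domain protein, had 8.10 (30 bp downstream), Kcnk1, a potassium channel, 8.09 (315 bp downstream), Baiap2, an adaptor that shapes actin-based protrusions, 8.07 (8 bp upstream) and Trmt11, a transfer RNA methylation factor, 8.03 (120 bp upstream). Thus 9 of the 15 highest members lay within 1 kb of a listed start. Of the others, Hivep2, a zinc-finger factor, had 8.24 at 3382 bp from the start end, and Zfp710, of the same kind, had 8.13 at 2376 bp. Gata2, a factor of blood progenitors and other lineages, had 8.10 in a peak of 264 bp, the narrowest of the 15, 4491 bp from the other end.

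**Figure D4:**
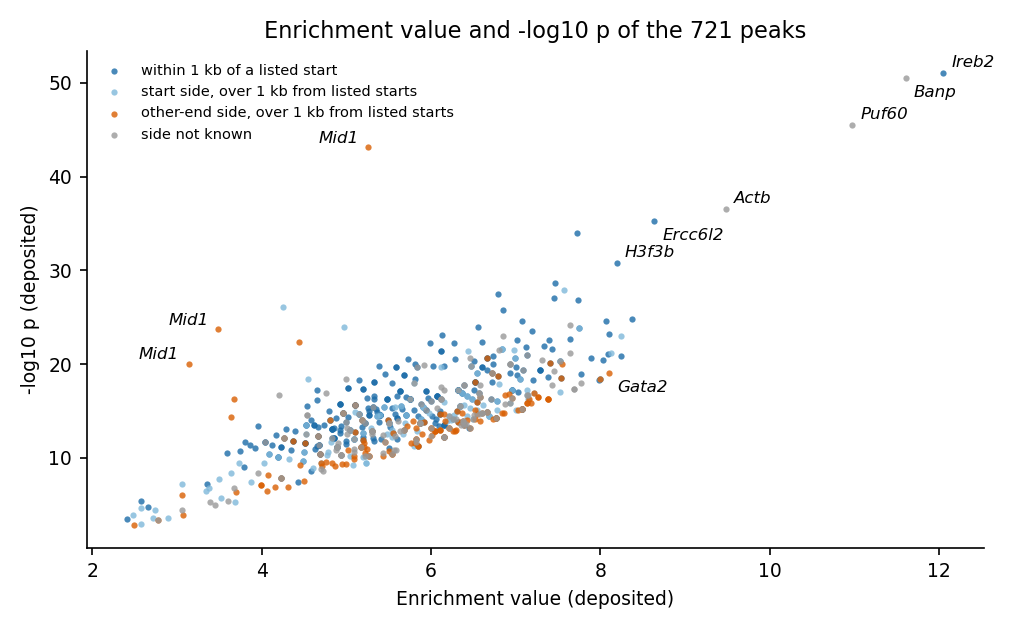
Deposited enrichment value and −log10 p of each of the 721 members, coloured by position relative to listed starts. Ireb2, Banp and Puf60 stand at the top right with enrichment values of 11 to 12.0, and the 3 peaks in Mid1 lie above the other peaks of like enrichment value.

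At the bounds of the rule, 3 peaks on either side had the values given here. Just inside 1 kb were Ppp1r3g (1001 bp, enrichment value 5.21), Nrtn (1002 bp, 6.38) and Rnf225 (1005 bp, 7.52). Just outside were Tmem229a (1000 bp, 7.18), Sp3 (995 bp, 5.46) and Klhl40 (994 bp, 5.48). Just inside 5 kb were Zc3h14 (4993 bp, 6.93), Gramd1a (4974 bp, 5.50) and Pcdh1 (4946 bp, 5.43), and just outside were Fbxo43 (5004 bp, 6.93), Nfatc1 (5025 bp, 5.27) and Bicdl1 (5032 bp, 3.64).

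Some members were the second peak of their gene. In 143 of 721 (19.8%, 17.0 to 22.9) a host gene had another wild-type summit within 1 kb of one of its ends, against 171 of 628 deep peaks (27.2%). The share was 23 of 304 at a listed start (7.57%) and 51 of 137 away from listed starts on the side of the other end (37.2%). The nearest other summit lay within 5 kb for 153 members (21.2%, 18.3 to 24.4), against 10.9% of all peaks. By class that share was 7.89% within 1 kb of an end, 14.0% deep inside genes and 18.3% (14.6 to 22.6) outside genes. The 724 host genes had a median length of 24451 bp, and 45 members had their nearest end in a neighbouring gene. Most host genes (688) held 1 member, 35 held 2, and Mid1 held 3.

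None of the members was in the knockout list. No member shared a base with any of the 7 knockout peaks (0 of 721, which allows a share of up to 0.416% for counting error), against 3 of 5775 wild-type peaks (0.0519%). The member summit nearest to a knockout summit lay 2125 bp from it. Because the lists were filtered differently and the knockout list was short, this does not show that the members depend on SHP.

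Host genes were then grouped by function. Of 19304 protein-coding genes over 2 kb, the length a gene needs to hold a member, 724 (3.75%, 3.49 to 4.03) did so. Over the 30 lists together, 94 of 1328 such genes (7.08%) did. These lists were set against that share as a description, with exact intervals and no set test.

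Genes that regulate transcription made up several of the groups with high shares, also among peaks outside the rule. A peak within 1 kb of an end was present in 51.5% of immediate early genes, 37.0% of intestinal transcription factors, 47.4% of chromatin enzymes and cofactors, 29.2% of nuclear receptors and 42.3% of clock genes, against 22.8% of all genes over 2 kb. A peak deeper than 5 kb inside the gene was present in 6.06%, 10.9%, 7.69%, 12.5% and 11.5%, against 2.76%. Immediate early and AP-1 genes, which respond within minutes to growth signals, were hosts in 9 of 33 (27.3%, 13.3 to 45.5), though their median length was only 5.34 kb. They were Srf (7.14), the serum response factor, Klf10 (6.48), Nr4a1 (6.02), Zfp36l2 (6.00) and Zfp36l1 (5.46), which destabilise messenger RNAs, Fosb (5.91), Csrnp1 (5.26), Jund (4.97) and Ier5 (2.72), with enrichment values in brackets. Only Csrnp1 among these had a summit within 1 kb of a listed start (Klf10 and Zfp36l2 had no entry), and 5 of the 9 genes also had a peak within 1 kb of an end. The count of 9 was 4 from 2 to 5 kb and 2 at or above the 75th percentile of the enrichment value. Intestinal transcription factors were hosts in 8 of 46 (17.4%, 7.82 to 31.4). Among them were Arid5b (7.08), Tcf7l2 (6.66), the Wnt effector, Gata6 (6.07), Foxa1 (5.82), Cdx2 (5.54), which sets intestinal identity, Gfi1 (5.24) and Spdef (5.10), a goblet and Paneth cell factor. None of these 8 summits lay within 1 kb of a listed start (Gata6 was among those with no entry).

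Corepressors, coactivators and chromatin enzymes, the class through which SHP is known to repress, were hosts in 12 of 78 (15.4%, 8.21 to 25.3). The values were 7.57 at Kdm2a, a histone demethylase, 7.54 at Ehmt2, the H3K9 methyltransferase G9a that SHP is known to recruit, and 7.13 at Kat5, an acetyltransferase. Kdm6b (6.96), Smarca2 (6.95), Kmt2d (6.79), Arid1a (6.72 and 5.59), Ncoa7 (6.11), Brd2 (6.00), Ncoa2 (5.32), Sin3a (4.08), a scaffold of histone deacetylase complexes, and Tle3 (3.06) followed. In 7 of these 12 genes a summit lay within 1 kb of a listed start, and 5 also had a peak within 1 kb of an end. The Kdm2a peak also lay in the overlapping gene 9430078G10Rik, whose end it covered, so it cannot be given to either gene alone, and the Brd2 peak likewise lay in H2-DMa.

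Nuclear receptors were hosts in 6 of 48 (12.5%, 4.73 to 25.2). Nr5a1 (SF-1), a close relative of LRH-1, had the highest value (7.69, chr2:38710250-38711122, summit 4166 bp from an end). Thra, the thyroid hormone receptor, had 6.11, Nr4a1 6.02, Rara, a retinoic acid receptor, 5.81, Nr2f6 5.78 and 5.02 in adjacent peaks, and Nr3c2, the mineralocorticoid receptor, 5.22 and 3.38. Nr5a2, Hnf4a, Nr1h4 (FXR) and Nr0b2 itself held no member. Clock genes were hosts in 3 of 26 (11.5%, 2.45 to 30.2), with Dbp at 6.52 and 5.58, Bhlhe41 at 6.15 and Nfil3 at 4.51. The stronger Dbp peak lay nearest to an end of the neighbouring gene Sphk2.

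Neuron and glia markers were hosts in 6 of 23 (26.1%, 10.2 to 48.4). A peak within 1 kb of an end was present in 4 of the 23 (17.4%), against 22.8% of all genes over 2 kb. A peak deeper than 5 kb inside the gene was present in 2 of the 23 (8.70%), against 2.76% of all. The hosts were Nefm, a neurofilament (6.77), Gfap (6.62), Ngfr (6.48), Grin1, a glutamate receptor subunit (6.30), Sox10 (5.88) and Rbfox3 (4.70). The count was 3 when the midpoint of the interval replaced the summit, 3 under either strength threshold and 2 from 2 to 5 kb. None of the 6 summits lay within 1 kb of a listed start (Nefm and Sox10 had no entry), and the Grin1 summit lay nearest to an end of its neighbour Lrrc26. The intestine holds enteric neurons and glia, and their share of the tissue was not measured. The markers of muscle and stroma, of immune cells and of hepatocytes were hosts in 0 of 27, 0 of 27 and 0 of 29, which allows up to 11.1%, 11.1% and 10.3% for counting error. Of the enterocyte markers 1 of 42 (Amn, 5.24) was a host, of the secretory and hormone cell markers 1 of 24 (Spdef), and of the stem and cycling cell markers 1 of 27 (Axin2, 5.76).

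Lists of lipid metabolism, autophagy, the lysosome and the respiratory chain had shares whose intervals all include the 3.75% of all genes. Fatty acid oxidation and ketogenesis had 0 of 48 and lipolysis and lipid droplets 0 of 28, which allows up to 6.25% and 10.7%. Of the same lists 39.6% and 25.0% of genes had a peak within 1 kb of an end. Autophagy had 1 of 63 (Atg9b, 5.64, nearest to an end of its neighbour Nos3) and the lysosome 1 of 76 (Cd63, 4.86), so Tfeb, Ulk1 and Pnpla2 were not among the hosts. A peak within 1 kb of an end, outside the rule, was present in 39.7% of autophagy and 40.8% of lysosome genes, against 22.8% of all. The respiratory chain had 1 of 54 (Cox5a, 4.81). In fat and sterol handling 2 of 58 genes (3.45%, 0.420 to 11.9) were hosts, namely Scap (6.52), the escort protein of SREBP, and Srebf1 (5.31), which encodes SREBP-1 and had its summit 290 bp upstream of a listed start. The bile acid and FGF15 list had 1 of 24, at Mafg (4.76), a repressor of bile acid synthesis genes.

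Iron handling had 3 of 26 (11.5%), with Ireb2, Fth1 (6.85), the ferritin heavy chain, and Slc11a2 (5.92), the intestinal iron importer DMT1. The Fth1 summit lay 144 bp downstream of a listed start. Glycolysis had 4 of 44 (9.09%, 2.53 to 21.7), and in each of the 4 a summit lay within 1 kb of a listed start. These were Aldoa (7.03, 4 bp upstream), Pfkfb4 (6.32 and 4.63), Ldha (5.33, 81 bp downstream) and Pfkfb2 (4.23, 58 bp downstream). Splicing and RNA-binding proteins had 8 of 64 (12.5%, 5.55 to 23.2), among them Puf60, Srsf1 (5.80) and Hnrnpl (5.69), and 5 of the 8 lay at a listed start. Actin and cell junction genes had 6 of 67 (8.96%), where Actb was followed by Myh14, a non-muscle myosin (6.99), and Itgb4, an integrin of hemidesmosomes (6.79).

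Counts in the remaining lists ranged from 2 to 6 hosts, and each interval includes the 3.75% of all genes. Ubiquitin and proteasome genes had 6 of 70 (8.57%), led by Huwe1, a ubiquitin ligase (7.08, summit 42 bp upstream of a listed start), Usp10 (6.42) and Usp34 (5.88). TGF-beta, BMP, Wnt and Notch genes had 4 of 49 (8.16%), with Dll1, a Notch ligand (6.95), Tcf7l2, Axin2 and Bmp4 (5.08 and 2.74). Insulin, mTOR and AMPK genes (Eif4e 5.81, Ptpn1 5.22 and Inppl1 4.19) and MAP kinase and DUSP genes (Dusp3 6.50, Dusp8 5.27 and Errfi1 5.19) each had 3 of 54 (5.56%). Cytosolic ribosomal proteins had 3 of 66 (4.55%, at Rpl17 and Rpl22 with 5.88 and Rps2 with 5.64), although 53.0% of them had a peak within 1 kb of an end. Rab, Arf and coat genes had 3 of 67 (4.48%, at Sec24d 6.52, Sec24a 5.94 and Rab21 5.66), and the unfolded protein response had 2 of 46 (4.35%, at Edem1 5.15 and Calr 3.53).

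**Figure D5:**
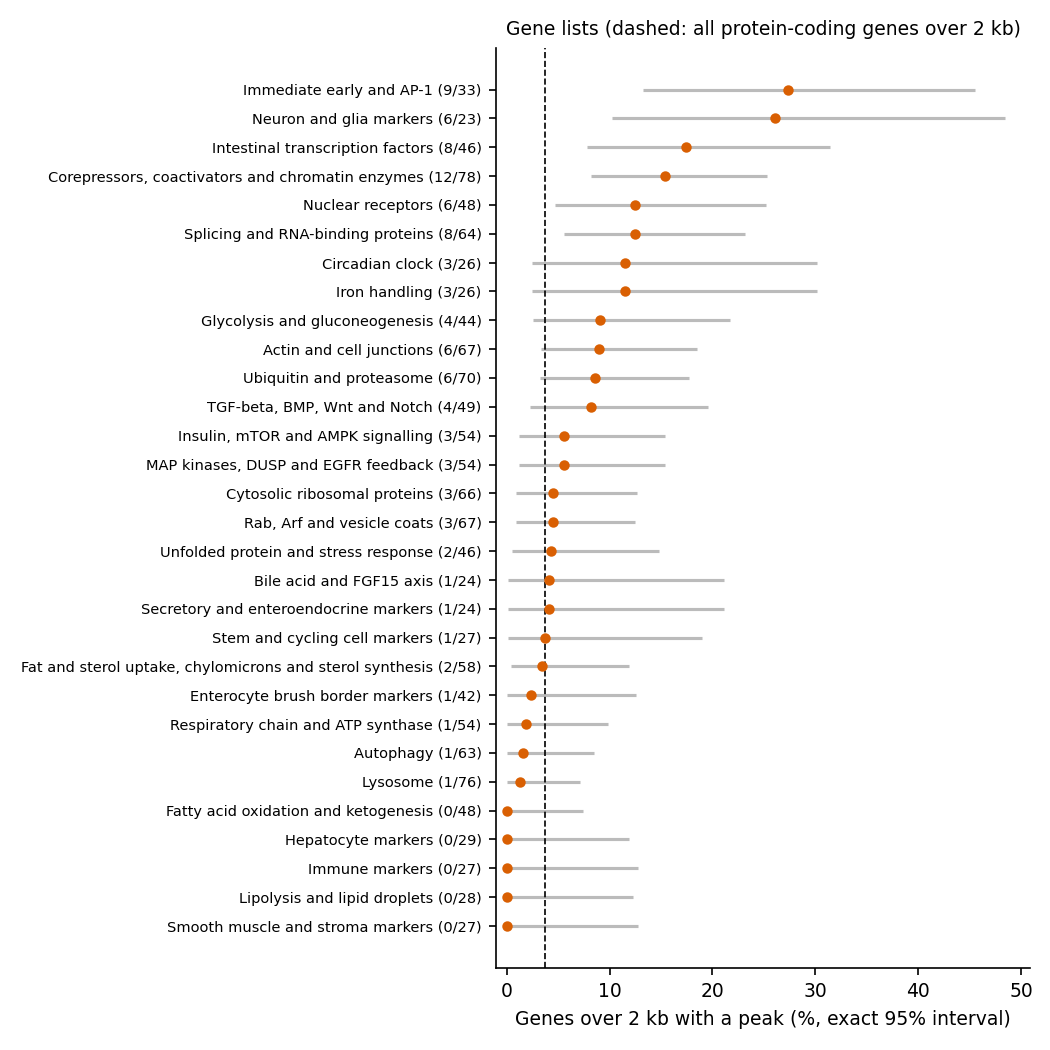
Share of the genes over 2 kb in each list that held a peak inside the gene 1 to 5 kb from an end (points, percent), with exact 95% intervals as bars and hosts over genes in brackets. The dashed line marks all protein-coding genes over 2 kb (3.75%), and the immediate early (27.3%) and neuron and glia (26.1%) lists stand farthest to its right.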

How the data were processed

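SHP ChIP-seq peak lists were used for 1 immunoprecipitation per genotype, while the input libraries were not used here. CASAVA 1.4, BWA and the mm10 build stand in the submitters' processing notes. The sources used here do not give the peak caller, its settings, pooling of sets or read depth, so no interval from reads was made. The deposited lists have the 10-column narrowPeak layout without a header. The deposited signal per peak (enrichment value), the deposited −log10 p and −log10 q and the deposited score are the authors' values, used only within a list. Per the file names, the wild-type list was filtered at IDR 0.05 and the knockout list by overlap.

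Summits were placed in 1-based coordinates against RefSeq genes of GRCm38.p6, with Python 3.11.15, pandas 2.3.3 and SciPy 1.17.1. The 18 members on chromosome 18 have no listed start. Strand came from that table. Shares carry 95% exact (Clopper-Pearson) binomial intervals and medians an order-statistic interval, which cover counting error only. A count of 0 is given with the share that 3 counts allow. No test across peaks or genes was run, since peaks are not replicates. The classification was checked on simulated summits. The members and lists were chosen with earlier results of these data known. The design had no start table in view, so the grouping by listed start was made after it was seen. Genes were named by rule: the 15 highest and 5 widest members, those at the bounds, genes with 3 members, up to 3 per list and the genes of the study's theme; other hosts of a list were added after their values were seen. All 1364 names of the 30 lists were matched to RefSeq genes. Some members of the lists are counted but not reported here by name.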

Additional observations from a re-analysis of the deposited data

How the results depend on the processing

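Alternatives were written with earlier results known and changed 1 choice at a time; the causes of the shifts were not tested beyond what each choice sets by construction. When the list was limited to its upper part by −log10 p (median or more) there were 320 members (11% of the peaks left), with a median enrichment value of 6.53 and −log10 p of 17.2, 54.4% and 46.6% of them at or above the 75th percentile of these measures. The start end then took 82.4%, listed starts 54.0%, another peak at an end of the host 10.3%, and 1.76% of all and 4.07% of listed genes were hosts. At or above the 75th percentile of the enrichment value the same quantities were 198 (13.7%), 6.95, 18.1, 100% and 54.0%, with another peak in 5.05% and hosts at 1.16% and 2.11%. From 2 to 5 kb there were 332 members (5.75%, median width 1002 bp), with 67.0% at the start end, 39.5% at listed starts, 3.01% reaching within 1 kb of an end, and hosts at 1.77% of all and 3.01% of listed genes. From 1 to 10 kb the share was 16.3%, the width 1038 bp, the reach 27.2% and hosts 4.73% of all genes; with ends of genes of every type the reach was 31.5%. Curated symbols, interval midpoints and ends of the host alone moved none of these values over all members beyond its interval, and the knockout overlap was 0 under each definition. Of 240 list counts, 174 stayed within 1.5 times; 24 of the 66 others came from the 75th percentile, 17 from 2 to 5 kb, 14 from the median −log10 p, 5 from 1 to 10 kb, 4 from ends of every gene type and 2 from midpoints (neuron and glia markers 6 to 3, insulin, mTOR and AMPK signalling 3 to 5). Depth is unknown and 1 list per genotype gives no replicate error. No paired analysis was possible because each genotype had 1 list and no test was run.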

Other observations

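Homeobox genes of the Hox clusters, which set position along the body axis, were hosts in 6 of 38 (15.8%, 95% exact interval 6.02 to 31.3), against 3.75% of all genes over 2 kb. Among them Hoxc9 had 7.15 and 3.61, Hoxd10 6.78, Hoxb3 6.58, Hoxd11 4.51 and Hoxc5 3.67 as deposited enrichment values. The Hoxb3 summit lay nearest to an end of Hoxb4 and the Hoxd11 summit nearest to one of Hoxd10, so these peaks cannot be given to 1 gene by position. A single peak in the gamma-protocadherin cluster (6.94, 2547 bp from an end of Pcdhgc5) lay inside 24 annotated genes, which the cluster's shared 3′ exons bring together, and it alone made hosts of all 12 Pcdhga and 6 Pcdhgb genes over 2 kb. Ankrd genes were hosts in 7 of 47 (14.9%, 6.20 to 28.3), Zfp genes in 17 of 397 (4.28%) and Slc genes in 11 of 373 (2.95%), the last 2 with intervals that include the share of all genes. These families, by the letters before the first digit of the symbol and with at least 4 hosts, were chosen after the values were seen, and no test was made.

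Mid1, a ubiquitin ligase gene that spans the boundary of the pseudoautosomal region in C57BL/6 mice, held 3 members near its other end, at chrX:169985828-169986970, chrX:169987478-169987926 and chrX:169988497-169989448. Their enrichment values were 3.14, 3.49 and 5.26 and their −log10 p 20.1, 23.8 and 43.1. Among the 118 members with an enrichment value from 5 to 5.5, the median −log10 p was 13.1, and the highest after that of Mid1 was 19.8. Duxf3, of a repeated homeobox family, had 4.25 with a −log10 p of 26.1.

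Several members held a microRNA gene. The hairpin of Mir6546 lay 6 bp from the summit in Fcgr3 (enrichment value 4.55), that of Mir8104 15 bp from the summit in Ppm1h (5.40), and that of Mir5620 244 bp from a summit in Clcn4 (6.28). Of 721 members, 84 lay inside or within 1 kb of a long noncoding RNA gene (11.7%, 9.40 to 14.2), against 15.8% of all wild-type peaks. For microRNA genes there were 12 members (1.66%, 0.863 to 2.89), against 0.952% of all wild-type peaks. For transfer RNA genes there were 2 members (0.277%, 0.0336 to 0.998), against 0.658% of all and 4.97% outside genes. Within 1 kb of a listed start of a long noncoding RNA lay 55 summits, 24 of them away from listed starts of protein-coding genes.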
